A study of Saccharomyces cerevisiae with 19 samples.

Results

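Antisense CLIP peaks of Flag-tagged Pcf11 in Saccharomyces cerevisiae are described here: regions where RNA recovered with Pcf11 came from the strand opposite an annotated gene. CLIP sequencing reads RNA that was crosslinked to a protein and precipitated with it. The members were all peaks of the authors' 2 annotated peak lists whose annotation text contains the word antisense. They were 273 of 1332 peaks in immunoprecipitation (IP) 1 and 387 of 1707 peaks in IP 2, or 20.5% and 22.7%. All 660 were annotated as antisense over their whole length. The gene on the opposite strand that the authors assigned to a peak is called its host. By coordinates, 184 of the 273 peaks and 252 of the 387 lay wholly inside their host (67.4% and 65.1%). The others reached past an end of it or lay outside it.

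Pcf11 is a subunit of cleavage factor IA, which takes part in cleaving and polyadenylating the 3' ends of messenger RNA, and it binds the C-terminal domain of RNA polymerase II and helps it to leave the DNA. Yeast polymerase also transcribes the strand opposite genes, from bidirectional promoters and from the ends of neighbouring genes. Most such antisense RNAs are ended by the Nrd1-Nab3-Sen1 complex, whose Nrd1 and Nab3 subunits recognise short RNA words, or by the cleavage and polyadenylation machinery. Many are then degraded by the nuclear exosome with its TRAMP cofactor or by 5' to 3' exonucleases.

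The CLIP libraries came from yeast overexpressing Flag-Pcf11, with 2 IPs and 2 inputs, where an input is RNA of the same preparation without precipitation. Their labels give both IPs the same replicate number, so it is not stated that they were separate cultures. RNA sequencing covered 5 strains with 3 biological replicates each. The first is labelled ΔPcf11, a deletion of PCF11, and the second is Pcf11-AARR, in which 4 conserved residues of the protein were changed. Pcf11-OE1 and Pcf11-OE2 overexpress the gene, and the labels do not say which promoter and terminator pair each carries. WT is the strain they were set against. Every library carries both strain names S288C and CEN.PK2-1C in its labels, and all were taken at 36 h.

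IP 1 had 317545 reads after removal of duplicates and IP 2 had 512533, and the 15 RNA-seq libraries had 25930079 to 45796931 counts on named features. PCF11 itself was not missing in the libraries labelled ΔPcf11. It had 11.8, 12.9 and 12.1 CPM (counts scaled to library size) there, against 17.5, 13.9 and 13.9 CPM in WT, a log2 fold change of -0.30 ± 0.12 (SE; edgeR adjusted p = 0.0456). It averaged 578 ± 28.5 CPM in Pcf11-OE1, 74.7 ± 11.4 CPM in Pcf11-OE2 and 15.1 ± 2.14 CPM in WT (SD, n = 3 each).

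Sequences are given for the 12 antisense peaks found in both IPs with the highest product of their 2 heights. They are bases of the reference genome, not reads of these libraries. Each is 61 bases around the summit in IP 1, read 5' to 3' on the peak's own strand, which is the strand opposite the host, from the R64 genome. Of the 61 bases, 45 at RRT15 and 48 at snR33 lie opposite the gene itself, all at 9 others, and 0 at HPF1, whose window begins 1386 bases outside the gene, past its start. Capitals mark 3 words known from yeast 3' ends, TATATA of the efficiency element, AATAAA of the positioning element and the tract TTTTTT, as well as the Nrd1 word GTAG and the Nab3 words TCTTG and CTTG. They were searched on the peak's own strand only. TCTTG holds CTTG, so that a single stretch can count for both.
opposite RRT15, chrXII:490390-490450, minus strand: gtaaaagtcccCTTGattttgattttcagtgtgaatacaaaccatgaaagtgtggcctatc
opposite snR7-L, chrVII:939559-939619, plus strand: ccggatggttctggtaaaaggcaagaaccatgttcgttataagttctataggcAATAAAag
opposite CIT2, chrIII:121914-121974, plus strand: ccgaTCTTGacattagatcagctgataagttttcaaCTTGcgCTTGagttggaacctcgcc
opposite YCL042W, chrIII:50898-50958, minus strand: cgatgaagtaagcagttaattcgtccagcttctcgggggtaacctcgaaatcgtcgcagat
in the peak of HPF1, past its start, chrXV:32992-33052, plus strand: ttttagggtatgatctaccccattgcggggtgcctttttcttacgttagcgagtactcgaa
opposite HSP104, chrXII:91214-91274, minus strand: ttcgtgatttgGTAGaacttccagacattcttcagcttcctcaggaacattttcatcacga
opposite PRY3, chrX:293435-293495, plus strand: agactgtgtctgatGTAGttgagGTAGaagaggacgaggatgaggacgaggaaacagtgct
opposite snR189, chrIII:178616-178676, plus strand: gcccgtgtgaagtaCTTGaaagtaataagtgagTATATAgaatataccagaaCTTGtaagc
opposite ACS1, chrI:44819-44879, plus strand: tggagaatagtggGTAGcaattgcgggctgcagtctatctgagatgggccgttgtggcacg
opposite GRX5, chrXVI:445216-445276, minus strand: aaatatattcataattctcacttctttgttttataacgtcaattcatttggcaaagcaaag
opposite HAC1, chrVI:75185-75245, minus strand: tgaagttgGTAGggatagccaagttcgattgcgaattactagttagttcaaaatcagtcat
opposite snR33, chrIII:142351-142411, plus strand: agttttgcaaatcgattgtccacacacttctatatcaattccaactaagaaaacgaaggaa

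Of these windows, 4 held none of the words (those of YCL042W, HPF1, GRX5 and snR33). The window opposite CIT2 held CTTG 3 times, once inside TCTTG. The window opposite RRT15 lies beside the ribosomal DNA array on chromosome XII. Of the 346 30-base words of that peak, 157 (45.4%) occurred elsewhere in the genome, in the 25S and 35S ribosomal RNA genes RDN25-1, RDN25-2, RDN37-1 and RDN37-2 and in YLR154C-G. Reads there cannot be placed on 1 copy with certainty. Of the 3952 words of the HPF1 peak, 273 (6.9%) recurred, in CSS1 and YAR068W, and the other 10 peaks held 0 repeated words.

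Antisense peaks were low. Peak height is the highest read depth inside a peak as deposited, not scaled to library size. Its median was 5 reads in IP 1 and 6 reads in IP 2 for antisense peaks, against 14 and 18 reads for sense peaks and 5 and 5 reads for intergenic peaks. Of antisense peaks, 37 of 273 in IP 1 and 66 of 387 in IP 2 reached 10 reads (13.6% and 17.1%), and 3 and 11 reached 20 reads. They ran from 3 to 156 reads in IP 1 and from 3 to 102 reads in IP 2. Their median length was 274 bases in IP 1 and 272 bases in IP 2, against 573 and 700 bases for sense peaks.

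The antisense peaks held 2793 of the 77069 tags in peaks of IP 1, which is 3.62% (exact 95% binomial interval 3.49% to 3.76%). In IP 2 they held 4857 of 123287 tags, or 3.94% (3.83% to 4.05%). These intervals cover counting error only. Their share of the reads was thus far below their share of the peaks. The strands held similar numbers, with 139 plus and 134 minus peaks in IP 1.

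**Figure D1:**
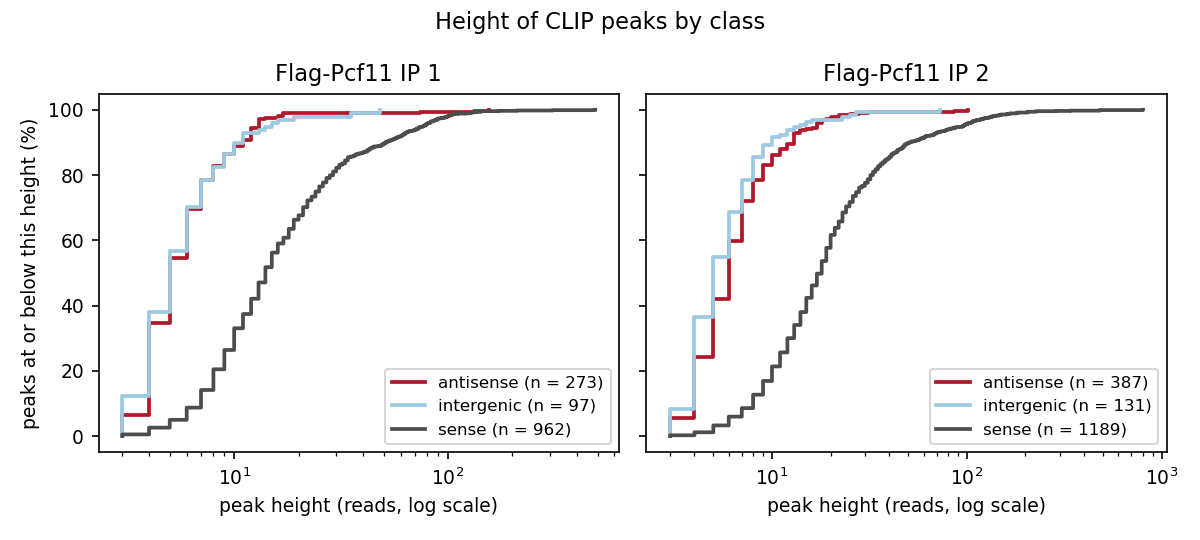
Cumulative share of peaks (percent, vertical axis) at or below each height (reads, log horizontal axis) for antisense, intergenic and sense peaks in IP 1 (left) and IP 2 (right). The antisense and intergenic curves lie close together, with medians of 5 to 6 reads, and the sense curve lies to their right, with medians of 14 and 18 reads.

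Few antisense peaks were found in both IPs. With at least 1 base of overlap on the same strand counted, 59 of the 273 antisense peaks of IP 1 (21.6%) met a peak of IP 2, and 52 of the 387 of IP 2 (13.4%) met a peak of IP 1. For sense peaks the shares were 30.5% of IP 1 and 25.1% of IP 2, and for intergenic peaks 28.9% and 18.3%. Recovery went with height. In IP 1, 10 of 95 antisense peaks of 3 to 4 reads, 29 of 141 of 5 to 9 reads and 20 of 37 of at least 10 reads were found again (10.5%, 20.6% and 54.1%). In IP 2 the same steps gave 6.38%, 10.6% and 33.3%. At 10 reads or more, the share was 54.1% for antisense and 34.9% for sense peaks in IP 1, and 33.3% and 27.9% in IP 2. These shares come from 1 library each and have no test.

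The overlaps formed 55 pairs, of which 51 were antisense in both IPs. In those 51 the height was above that of IP 1 in IP 2 in 34 pairs and below it in 10, and IP 2 was the deeper library. Both heights reached 10 reads in 12 pairs. The heights of the 51 pairs went together, with a Spearman rho of 0.77 across pairs, which share their 2 libraries and are not replicates.

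**Figure D2:**
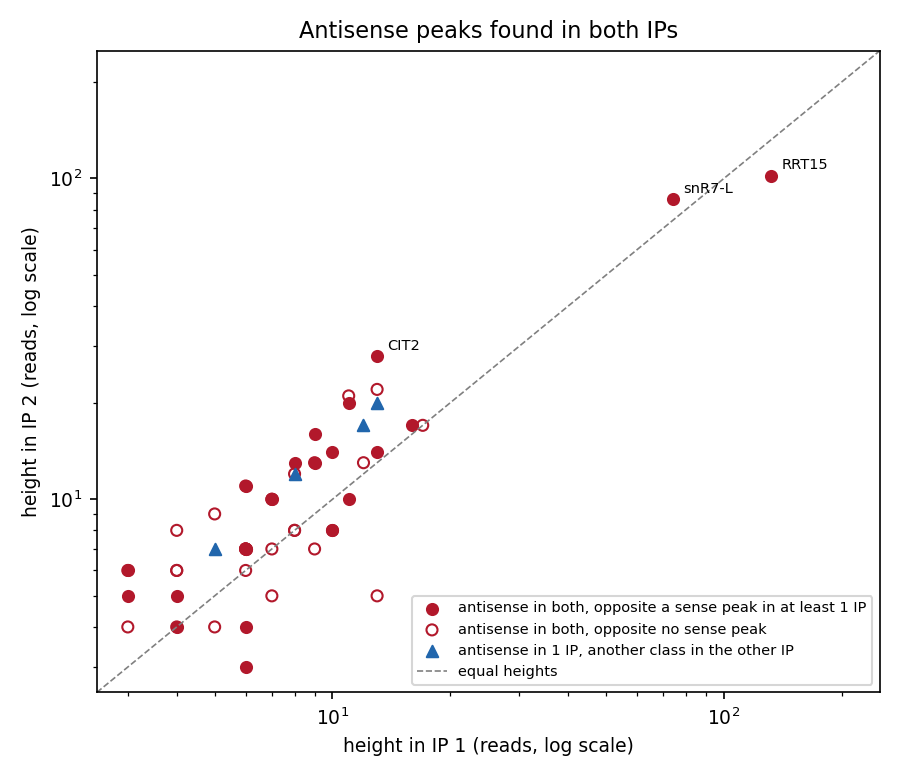
Height in IP 2 against height in IP 1 (reads, both axes log) for the 55 pairs of overlapping peaks; filled circles lie opposite a sense peak in at least 1 IP, open circles do not, and triangles were antisense in only 1 IP. RRT15 and snR7-L stand apart at 74 to 132 reads, followed by CIT2 at 13 and 28 reads.

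The 2 highest pairs lay opposite RRT15 and snR7-L. The peak opposite RRT15, a small open reading frame next to the ribosomal DNA, reached 132 reads in IP 1 and 102 in IP 2. RRT15 also had a sense peak, of 22 and 23 reads, and only 13 and 7 sense reads and 1 and 2 antisense reads in the inputs. The peak opposite snR7-L, the long form of the U5 small nuclear RNA of the spliceosome, reached 74 and 86 reads, with a sense peak of 338 reads facing it in IP 2 and none in IP 1. Opposite the small nucleolar RNAs, which guide chemical modification of ribosomal RNA, heights were 11 and 21 reads at snR189 and 12 and 13 reads at snR33, and by the product of heights 5 pairs opposite protein-coding genes ranked between snR7-L and snR189. The highest antisense peak of IP 1 lay opposite SCR1, the RNA of the signal recognition particle, with 156 reads and 343 tags, and it had no counterpart in IP 2. In the inputs SCR1 had 3024 and 2900 sense reads and 186 and 144 antisense reads.

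The other high pairs lay opposite protein-coding genes. CIT2, the peroxisomal citrate synthase of the glyoxylate cycle, had antisense heights of 13 and 28 reads, against 131 and 180 reads in the sense peak facing it, and its inputs held 56 and 34 antisense reads, against 2373 and 2299 sense reads. ACS1, an acetyl-CoA synthetase, had antisense heights of 11 and 20 reads, against 74 and 137 reads in its sense peak. HAC1, the transcription factor of the unfolded protein response, had 13 and 14 antisense reads, against 73 and 117 sense reads. At all 3 genes the sense peak was the higher in both IPs. HSP104, the chaperone that takes protein aggregates apart, had antisense heights of 16 and 17 reads, and in IP 2 a sense peak assigned to its neighbour ISA1 faced it with 129 reads.

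Other pairs had no sense peak facing them. YCL042W, a reading frame that overlaps the start of the glucokinase gene GLK1 on the same strand, had antisense heights of 17 and 17 reads. In IP 2 the centre of that peak lay past the end of YCL042W, at 1.17 of its length. HPF1, a cell wall mannoprotein, had antisense heights of 13 and 22 reads in the longest antisense peaks, of 3981 and 4035 bases, which began inside the gene and ran past its start. Its inputs held 368 and 380 antisense reads, against 110 and 99 sense reads. PRY3, a cell wall protein that binds sterols, had heights of 13 and 20 reads, with 159 and 178 antisense reads in the inputs, against 57 and 85 sense reads. In IP 2 the PRY3 peak was annotated as sense to YJL077W-B, so its strand there belongs to an annotated gene. GRX5, a mitochondrial glutaredoxin of iron-sulphur cluster assembly, had heights of 12 and 17 reads. The centre of that peak lay 153 bases behind the end of PDR12, a weak acid exporter on the peak's own strand, and in IP 2 it was annotated as sense to PDR12. HPF1 and PRY3 were thus 2 hosts whose inputs held more antisense than sense reads.

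Hosts of lower pairs included genes that act on RNA. RAT1, the nuclear 5' to 3' exonuclease that helps to end transcription, had antisense heights of 7 and 7 reads, with 21 and 28 antisense reads in the inputs, against 414 and 349 sense reads. PAP2, the poly(A) polymerase of the TRAMP complex, had a height of 3 reads in IP 1, and the peak of IP 2 that overlaps it, of 5 reads, was assigned to the neighbouring MSN1. PCF11 had no antisense peak in IP 1 and 1 of 18 reads and 46 tags in IP 2, at chrIV:922537-923723, facing a sense peak of 106 reads and 857 tags. The CLIP cells overexpressed Flag-Pcf11, so reads on this gene include those of the introduced copy where it carries the gene's sequence.

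Some of the highest antisense peaks of IP 2 had no counterpart in IP 1 and were chosen for naming after their values were seen. They included MLS1 and ICL1, the malate synthase and isocitrate lyase of the glyoxylate cycle, at 37 and 25 reads. ACH1, an enzyme that transfers coenzyme A to acetate, had 31 reads, and OLE1, the fatty acid desaturase, had 20. A sense peak faced the antisense peak at MLS1 with 182 reads and at ACH1 with 205 reads, and none faced those at ICL1 and OLE1. Hosts with a usable gene model numbered 259 genes in IP 1, 372 in IP 2 and 574 in either, which is 8.91% of 6443 gene models. Of antisense peaks, 266 in IP 1 and 379 in IP 2 lay opposite protein-coding genes, and 3 and 7 opposite small nucleolar RNA genes.

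Antisense peaks often faced a sense peak. In IP 1, 61 of 273 overlapped a sense peak on the other strand (22.3%), and in IP 2, 80 of 387 did (20.7%). The centre of an antisense peak faced a sense peak in 20.9% of cases in IP 1 and 19.9% in IP 2, against 7.04% and 10.1% of all 9337866 bases opposite genes. The sense peak facing it was a median of 6.36 times as high in IP 1 (quartiles 3.75 and 9.25) and 5.75 times as high in IP 2 (quartiles 3.90 and 7.81). The antisense peak was the higher one in 1 pair of IP 1 (RRT15) and 2 of IP 2 (RRT15 and YPS3, a cell wall protease gene named after its values were seen). Antisense peaks that faced a sense peak were found in both IPs in 31.1% of cases in IP 1 and 21.3% in IP 2, against 18.9% and 11.4% of those that did not. They were also higher, with medians of 7 and 7 reads against 5 and 6 reads, and recovery went with height. The part of height in this was not tested. Of the 51 pairs, 9 faced a sense peak in both IPs and 28 in neither.

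Hosts had abundant RNA on the sense strand. A gene counts here as a host of a peak found in both IPs when its antisense peak in either IP overlaps a peak of the other IP. Of the 57 such hosts, 46 had an antisense peak assigned to them in each IP. The median FPKM of the 57 was 129 in input 1 and 122 in input 2, against 49.2 and 48.7 in the 5869 genes without an antisense peak. The 10% of genes with the highest FPKM held 45.6% of these hosts. With all genes split into 10 equal groups by input FPKM, an antisense peak lay opposite 0.466% of the lowest group in both IPs and opposite 11.3% of the highest group in IP 1 and 17.1% in IP 2. The shares did not climb evenly. They were 3.26% and 4.81% in group 3, and 1.55% and 3.88% in group 5. Of hosts, 29.3% in IP 1 and 26.1% in IP 2 also had a sense peak, against 14.2% and 17.1% of all genes. The part that the level of the sense RNA has in the antisense peaks was not tested.

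**Figure D3:**
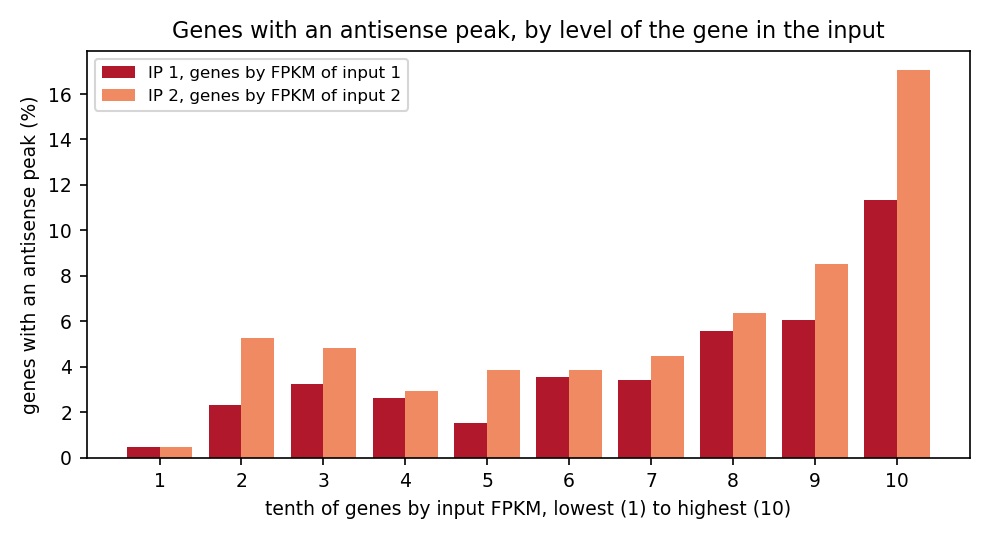
Share of genes with an antisense peak (percent, bars from 0) in 10 equal groups of genes by FPKM in the matching input, for IP 1 and IP 2. The lowest group stands at 0.466% in both IPs and the highest at 11.3% and 17.1%.

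The inputs show how much antisense RNA the hosts had without precipitation. Over the 57 hosts, antisense reads were 4.90% of reads in input 1 (exact 95% interval 4.66% to 5.16%) and 4.48% in input 2 (4.24% to 4.74%), against 3.27% and 2.98% in genes without an antisense peak. A few hosts held much of this signal. In input 1, HPF1, PRY3 and MTR2 held 611 of the 1375 antisense reads of these hosts (44.4%), and in input 2, HPF1, PRY3 and RPL19B held 622 of 1186 (52.4%). These 3 were picked as the highest after their values were seen. By gene, the median antisense share among those with at least 20 reads was 1.82% and 1.37% in 52 hosts, against 1.64% and 1.44% in other genes.

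More antisense than sense reads stood at 5 of these 52 hosts in input 1 and 3 in input 2, against 72 of 4755 and 64 of 4722 other genes. ART5, an adaptor that marks membrane proteins for endocytosis, changed sides between inputs, with 64 antisense reads against 54 sense reads in input 1, and 48 against 57 in input 2. YFR035C, an uncharacterised reading frame, had antisense heights of 8 and 12 reads and inputs of 45 and 31 antisense reads against 0 and 0 sense reads. With 0 sense reads its input signal lay on the strand of the peak.

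Antisense peaks lay more often opposite the start than the end of their hosts. Their centres were inside the host for 241 peaks of IP 1 and 348 of IP 2 with a usable gene model. The first 20% of the host's length held 31.5% and 28.2% of those, against 23.1% of all bases opposite genes. The last 20% held 11.6% and 10.3%, against 14.1% of bases. Bases opposite genes were counted only where their own strand holds no gene. Antisense peaks seldom overlapped a gene on their own strand (3 of 273 and 2 of 387), so a peak needs more free room than a single base. The part of this in the low share at host ends was not tested. Centres of sense peaks lay in the first 20% of their own gene in 15.1% and 14.1% of cases. CIT2, ACS1, HAC1 and PUT4, a proline permease, had their IP 1 peaks in the first 20%, and HSP104 and RAT1 in the last 20%. In IP 2 the peaks of ACS1, HAC1, PUT4 and RAT1 lay in the same parts. Those of CIT2 and HSP104 did not, at 0.400 and 0.737 of the gene's length from its start.

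**Figure D4:**
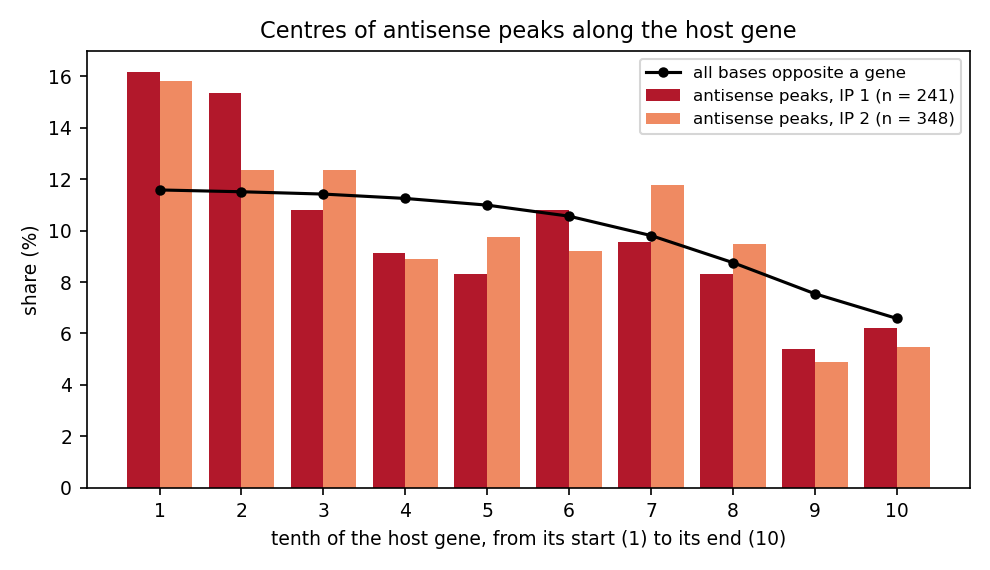
Share of antisense peak centres (percent, bars from 0) in each of 10 equal parts of the host gene from its start to its end, for IP 1 and IP 2, with the share of all bases opposite genes as a line. Together the first 2 parts held 31.5% and 28.2% of centres, above the line's 23.1%.

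Ends of genes on the peak's own strand were counted just before antisense peaks. The centre lay within 500 bases behind such an end for 28 of 273 peaks in IP 1 (10.3%) and 44 of 387 in IP 2 (11.4%), against 14.5% of all bases opposite genes. Sense peaks had 16.2% and 18.0%. Within 200 bases lay 1.47% and 2.07% of antisense peaks, against 5.91% of bases. Within 1000 bases lay 22.0% and 27.9%, against 27.3%, so that IP 2 was no longer below the bases at that distance. Only 3 of 273 and 2 of 387 antisense peaks overlapped an annotated gene on their own strand. A peak of the median length (274 and 272 bases) centred close behind a gene end would overlap that gene. Bases were dropped only where they lie in such a gene themselves. A lower share of peaks than of bases at 200 or 500 bases is therefore partly set by the class and is not read further. The median distance from the nearest such end was 2348 bases in IP 1 and 2388 bases in IP 2. Among the 12 named pairs, 1 (GRX5) lay within 500 bases of one.

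The short words of yeast 3' ends and of Nrd1 and Nab3 sites were counted in antisense peaks and in other sequence opposite genes. GTAG and TATATA stood within 2 percentage points of that sequence in both IPs, CTTG stood above it and AATAAA below it. All shares are of 201-base windows around the peak summit and refer to the peak's own strand, beside 41868 tiles of the same length opposite genes. GTAG, a word bound by Nrd1, was in 46.9% of antisense windows of IP 1 and 48.8% of IP 2, against 48.2% of tiles. TCTTG, a word bound by Nab3, was in 46.9% and 40.3%, against 39.4% of tiles, and the shorter CTTG in 76.6% and 74.2%, against 69.7% of tiles. In sense windows TCTTG was in 17.5% and 16.6% and GTAG in 32.1% and 32.0%. Antisense windows stood above the sense windows for both words in both IPs, and so did the tiles. Intergenic windows held TCTTG in 17.5% and 19.1% and GTAG in 27.8% and 48.9%.

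Of the words of the 3' end machinery, TATATA was in 8.06% of antisense windows of IP 1 and 7.75% of IP 2, against 7.92% of tiles. AATAAA was in 10.6% and 9.56%, against 14.9% of tiles and 14.7% and 15.0% of sense windows. TTTTTT was in 21.2% and 17.1%, against 21.0% of tiles. Antisense windows were 59.0% and 58.7% A or T, and tiles 61.1%. Repeats touched few of the peaks: 92.7% of antisense peaks in IP 1 and 90.4% in IP 2 held no 30-base word found elsewhere in the genome, against 88.8% and 90.2% of sense peaks.

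Host genes were then counted in gene lists, here without a test. Of all 6443 gene models, 0.885% were hosts of a peak found in both IPs and 8.91% were hosts in either IP. By IP, 4.02% were hosts in IP 1 and 5.77% in IP 2. Heat shock genes and chaperones were hosts most often, with 5 of 21 opposite a peak found in both IPs (HSP104, HSP78, SIS1, SSA1 and SSA3) and 11 of 21 in either IP. Their median FPKM in the inputs was 375 and 356, the highest of the 9 lists. SSA1 shares much of its sequence with SSA2, and its pair of 11 and 10 reads is less certain for that. Of 21 glycolysis genes, PGK1 was a host in both IPs, and the IP 1 peak of GLK1 overlaps a peak of IP 2 that was assigned to YCL042W. In either IP 7 were hosts, at a median FPKM of 193 and 192. Of 136 cytosolic ribosomal protein genes, 3 were hosts in both IPs (RPL19B, RPL7A and RPS8A) and 19 in either (14.0%), at a median FPKM of 104 and 101. These 3 have near-identical copies.

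Of the 21 genes of the cleavage and polyadenylation complexes, 0 were hosts in both IPs and 3 in IP 2 (CFT1, FIP1 and PCF11). Among all genes the shares were 0.885% in both IPs and 5.77% in IP 2, and lists this short cannot show a shortage beside them. Of the 6 genes of Nrd1-Nab3-Sen1 and Rat1 termination, RAT1 was a host in both and NAB3 in IP 1. Among 17 exosome and TRAMP genes measured, PAP2 was the one host, in IP 1. The translation factors had 3 hosts of 27, in IP 1 alone, and the histone genes 1 of 10, in IP 2 alone. Of 9 genes with a documented antisense RNA, GAL10 was the one host, with a peak of 4 reads in IP 1 over the annotated antisense RNA of that locus. Of the 7 annotated antisense RNAs examined, this was the one that an antisense peak covered.

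Hosts were also followed in the RNA-seq strains. Of the 57 hosts of peaks found in both IPs, 56 passed the filter on low counts. The labels name a stranded kit, but how the counting used strand is not given in the sources used here, so host counts may include antisense reads. YFR035C, with 0 and 0 sense reads in the inputs, had 118, 146 and 148 CPM in WT. HPF1, PRY3 and ART5 had more antisense than sense reads in 1 input or both. The RNA counted for these hosts may be largely antisense, which was not tested. All 4 comparisons share the 3 WT libraries, and their values are therefore given side by side without counting overlaps. In WT the hosts stood at a median expression percentile of 80, and 26.8% were in the top 10% of features.

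In the libraries labelled ΔPcf11, 11 hosts rose and 27 fell at an edgeR adjusted p under 0.05. That is 19.6% and 48.2% of hosts, against 32.2% higher and 33.2% lower among all 6119 features tested. In Pcf11-AARR, 7 rose and 24 fell, or 12.5% and 42.9%, against 32.5% and 33.0% of all features. In Pcf11-OE1, 18 rose and 19 fell, or 32.1% and 33.9%, against 35.3% and 33.2%. In Pcf11-OE2, 14 rose and 17 fell, or 25% and 30.4%, against 33.0% and 32.0%. The median log2 fold change of hosts was -0.34 in ΔPcf11, -0.27 for Pcf11-AARR, -0.16 for Pcf11-OE1 and 0.01 for Pcf11-OE2, against 0.00, 0.01, 0.03 and 0.00 for all features. With a change of at least 2-fold required too, 1 rose and 10 fell in ΔPcf11 (1.79% and 17.9%, against 10.8% and 8.73% of all features). In Pcf11-AARR 2 rose and 14 fell (3.57% and 25%, against 11.2% and 10.8%). In Pcf11-OE1 5 rose and 8 fell (8.93% and 14.3%, against 13.2% and 12.5%), and in Pcf11-OE2 4 rose and 11 fell (7.14% and 19.6%, against 11.1% and 11.0%). Hosts in ΔPcf11 and Pcf11-AARR were thus called lower more often than features at large. The part of their high expression in this was not tested.

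**Figure D5:**
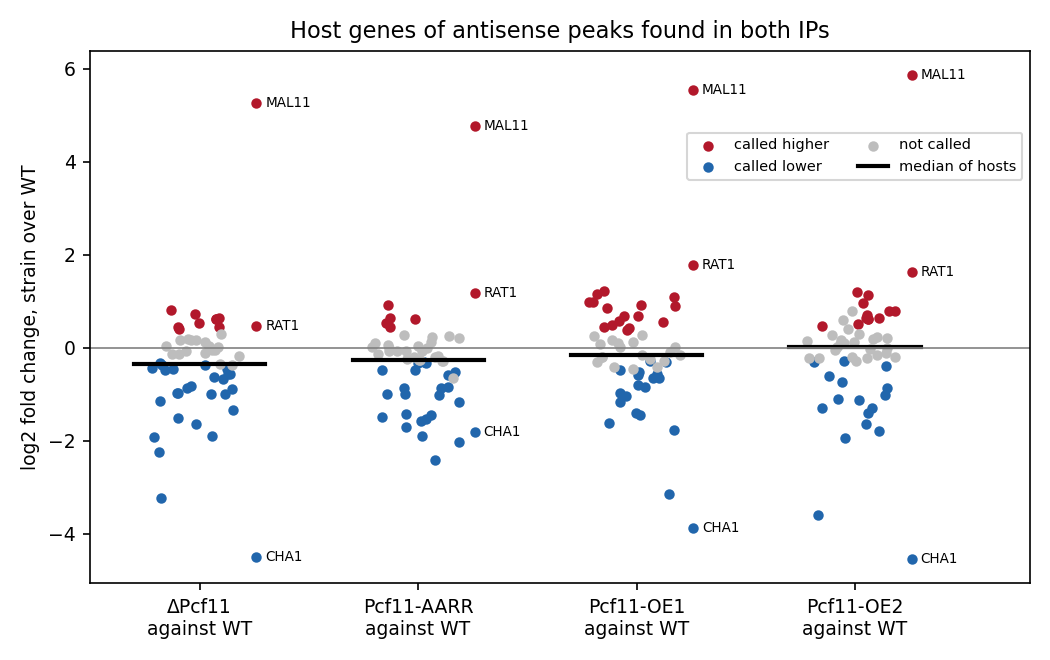
Log2 fold change of each of the 56 hosts, strain over WT, in the 4 comparisons, coloured by whether the host was called higher, called lower or not called; the bar is the median of hosts. MAL11 stands at 4.77 to 5.86 in all 4, and the medians run from -0.34 in ΔPcf11 to 0.01 in Pcf11-OE2.

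MAL11, a maltose and alpha-glucoside transporter, was the host that rose most. It had 1584, 1360 and 1420 CPM in ΔPcf11, 713, 1223 and 1180 CPM in Pcf11-AARR, 1742, 1678 and 1924 CPM in Pcf11-OE1 and 1711, 1977 and 2971 CPM in Pcf11-OE2, against 41.6, 33.6 and 39.3 CPM in WT. Every strain library was above every WT library. The log2 fold changes were 5.25 ± 0.23, 4.77 ± 0.22, 5.55 ± 0.23 and 5.86 ± 0.23 (SE), with adjusted p of 4.19e-08, 7.11e-08, 8.48e-08 and 7.23e-08 by edgeR. MAL11 is related in sequence to the transporter gene MAL31, and whether reads were shared between them was not tested. Its antisense peak had heights of 8 and 13 reads, and its input counts, 1694 and 1667 sense reads, come from cells overexpressing Flag-Pcf11.

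RAT1 rose in every strain. It had 111, 96.0 and 102 CPM in ΔPcf11, against 77.9, 70.5 and 74.1 CPM in WT, a log2 fold change of 0.47 ± 0.10 (adjusted p = 0.00149). It averaged 167 ± 13.8 CPM in Pcf11-AARR, 254 ± 19.3 CPM in Pcf11-OE1 and 230 ± 30.4 CPM in Pcf11-OE2, and 74.1 ± 3.72 CPM in WT (SD, n = 3 each). The log2 fold changes there were 1.17 ± 0.10, 1.78 ± 0.12 and 1.63 ± 0.12. PAP2 moved the other way. It had 60.7, 50.2 and 74.9 CPM in ΔPcf11, against 284, 212 and 212 CPM in WT, so that the groups did not overlap. Its log2 fold change was -1.93 ± 0.17 in ΔPcf11 (edgeR adjusted p = 4.04e-06) and -2.03 ± 0.17 in Pcf11-AARR (2.33e-06). With overexpression it was -1.05 ± 0.15 in Pcf11-OE1 (1.57e-04) and -1.40 ± 0.15 in Pcf11-OE2 (2.90e-05).

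NPA3, a GTPase needed to bring RNA polymerase II into the nucleus, also rose in every strain, with 232 ± 22.8 CPM in ΔPcf11, 217 ± 9.04 CPM in Pcf11-AARR, 329 ± 17.1 CPM in Pcf11-OE1 and 324 ± 30.8 CPM in Pcf11-OE2, against 141 ± 15.4 CPM in WT. Its inputs held 0 and 0 antisense reads. ART5 averaged 23.6 ± 3.51 CPM in Pcf11-AARR, 27.8 ± 7.76 CPM in Pcf11-OE1 and 27.7 ± 3.69 CPM in Pcf11-OE2, and 12.6 ± 1.24 CPM in WT, and it was called higher in these 3 and did not pass in ΔPcf11 (log2 -0.12 ± 0.13). RPL19B rose in ΔPcf11 (log2 0.80 ± 0.12) and did not pass in the other strains. PLB2, a phospholipase gene, rose in Pcf11-AARR (0.64 ± 0.12) and in both overexpressing strains and did not pass in ΔPcf11 (-0.08 ± 0.12). DDR48, a stress protein gene, was called in opposite directions, higher in ΔPcf11 (0.63 ± 0.17; edgeR adjusted p = 0.00752) and lower in Pcf11-AARR (-0.53 ± 0.17; adjusted p = 0.0184), and did not pass in Pcf11-OE1 or Pcf11-OE2.

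CHA1, the catabolic serine and threonine deaminase, was the lowest host in ΔPcf11, Pcf11-OE1 and Pcf11-OE2. It had 30.3, 10.1 and 12.8 CPM in ΔPcf11, against 301, 458 and 447 CPM in WT, a log2 fold change of -4.50 ± 0.38 (adjusted p = 3.44e-06). The log2 fold change was -1.81 ± 0.34 in Pcf11-AARR, -3.88 ± 0.60 for Pcf11-OE1 and -4.55 ± 0.62 for Pcf11-OE2. YDR134C averaged 48.8 ± 9.69 CPM in ΔPcf11, 141 ± 1.49 CPM in Pcf11-AARR, 52.0 ± 11.9 CPM in Pcf11-OE1 and 38.1 ± 1.68 CPM in Pcf11-OE2, against 463 ± 14.0 CPM in WT. It is a near copy of the cell wall gene CCW12 and had 0 reads in both inputs, so its counts may belong to either gene. PUT4 was the lowest host in Pcf11-AARR. It averaged 37.9 ± 8.16 CPM in ΔPcf11, 26.5 ± 7.44 CPM in Pcf11-AARR, 41.8 ± 18.8 CPM in Pcf11-OE1 and 41.3 ± 25.2 CPM in Pcf11-OE2, against 143 ± 9.50 CPM in WT.

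Of the 12 pairs whose sequences are given, CIT2 and ACS1 fell in each strain. CIT2 had 919, 1028 and 738 CPM in ΔPcf11, against 2777, 2736 and 2849 CPM in WT, and fell by 1.64 ± 0.15 there, 1.02 ± 0.15 in Pcf11-AARR, 1.45 ± 0.33 for Pcf11-OE1 and 1.30 ± 0.33 for Pcf11-OE2. ACS1 averaged 223 ± 80.7 CPM in ΔPcf11, 281 ± 56.2 CPM in Pcf11-AARR, 466 ± 216 CPM in Pcf11-OE1 and 272 ± 150 CPM in Pcf11-OE2, against 1050 ± 35.5 CPM in WT. Its log2 fold changes were -2.24 ± 0.23, -1.90 ± 0.23, -1.17 ± 0.38 and -1.95 ± 0.39. The call in Pcf11-OE1 was lost without replicate 1 or 2 of that strain or replicate 2 or 3 of WT, at values of -0.94 to -1.15.

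HAC1 fell by 0.84 ± 0.10 in ΔPcf11 and 1.17 ± 0.10 in Pcf11-AARR and did not pass the test in Pcf11-OE1 (-0.30 ± 0.12) or Pcf11-OE2 (0.11 ± 0.12). HSP104 passed in none of the 4, with log2 fold changes of -0.19 to 0.21. HPF1 was called in opposite directions. It averaged 1655 ± 299 CPM in ΔPcf11, 419 ± 75.2 CPM in Pcf11-AARR and 1213 ± 130 CPM in WT, with log2 fold changes of 0.45 ± 0.18 (edgeR adjusted p = 0.0442) and -1.53 ± 0.18, and did not pass in Pcf11-OE1 or Pcf11-OE2. The call in ΔPcf11 was lost when any 1 library other than replicate 2 of ΔPcf11 was left out, at 0.33 to 0.51. PRY3 also took both directions. It fell by 0.34 ± 0.12 in ΔPcf11 (adjusted p = 0.0306 by edgeR), a call lost without replicate 3 of ΔPcf11 or replicate 1 or 3 of WT, at -0.32 to -0.23. It rose by 0.85 ± 0.12 in Pcf11-OE1 and 0.95 ± 0.12 in Pcf11-OE2 and did not pass in Pcf11-AARR (-0.27 ± 0.12). GRX5 rose in each strain, by 0.52 ± 0.16 in ΔPcf11, where the call was lost without replicate 2 of that strain (0.38), by 0.52 ± 0.16 in Pcf11-AARR, 0.55 ± 0.11 for Pcf11-OE1 and 0.64 ± 0.11 for Pcf11-OE2. YCL042W fell by 0.90 ± 0.11 in ΔPcf11, 0.88 ± 0.11 in Pcf11-AARR and 0.59 ± 0.19 in Pcf11-OE1 and did not pass in Pcf11-OE2 (-0.22 ± 0.19). The call in Pcf11-OE1 was lost without replicate 1 or 2 of that strain or replicate 1 of WT, at -0.51 to -0.49. YCL042W overlaps GLK1 on the same strand. The log2 fold changes of GLK1 were -0.869 in ΔPcf11, -0.855 in Pcf11-AARR and -0.562 in Pcf11-OE1. The counts of YCL042W may therefore be those of GLK1 RNA. RRT15 fell by 1.44 ± 0.21 in Pcf11-AARR, 1.63 ± 0.17 for Pcf11-OE1 and 1.64 ± 0.17 for Pcf11-OE2 and did not pass in ΔPcf11 (-0.35 ± 0.21). Its peak shares sequence with ribosomal RNA genes, and whether its counts include reads of ribosomal RNA was not tested. snR7-L and snR33 were under 5 CPM in every library and are not read further.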

How the data were processed

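The authors' peak summary table names each comparison as an IP against its own input and counts reads after removal of duplicates. It lists peaks by 3 methods (ablife, piranha and cims), and the annotated lists used here hold as many peaks as its ablife rows, 1332 and 1707. Tags are deposited counts of reads per peak, and peak height is a deposited signal, the highest read depth, without scaling. Caller settings, aligner, counting tool and strand setting: not given in the sources used here. Trimming used fastp 0.23.0, per the submitters' processing notes. Per the file headers, the inputs hold sense and antisense counts per gene and FPKM made by the authors. RNA-seq tables hold the authors' raw counts per feature.

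Members and lists were chosen with earlier results of these data known. Peaks were compared with overlaps of at least 1 base on 1 strand, with pandas 2.3.3, numpy 2.4.6 and scipy 1.17.1 under Python 3.11.15, and sequence taken from the R64 genome, which has the accessions of the files. Of 6445 gene models, 2 over 20000 bases were taken as faulty and left out of counts of hosts, positions and bases opposite genes. Antisense peaks assigned to them, 3 in IP 1 and 5 in IP 2, stayed in the counts of peaks and pairs. Features without a gene name (454 of 6863 and 506 of 6943, with 0.996% to 1.38% and 0.872% to 1.38% of counts) were left out, and 2 names turned into dates were restored from the other table.

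The quasi-likelihood test of edgeR 4.0.16 (R 4.3.3) was run on the raw counts, with 1 fit for each of the 2 count tables, TMM factors and the filterByExpr filter. P-values were adjusted by Benjamini-Hochberg over all 6119 features, with a threshold of 0.05. Each table holds the same WT libraries, whose scaled values differ slightly between the fits. CPM values are after TMM scaling. The biological coefficient of variation was 0.133 and 0.144. The code was tested on simulated data with known changes. DESeq2 1.42.0, other scaling, no filter, 2 groups alone, a replicate block and leaving out each library were alternatives. Replicate numbers of Pcf11-AARR and WT pair these samples by the rule used, as deviations of same-numbered samples correlated at 0.162, 0.188 and 0.247. Samples of different numbers were not correlated for comparison. The values in the results come from the fit by strain alone, without pairs, for Pcf11-AARR too.

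Named peaks are the 12 found in both IPs with the highest product of heights. Named hosts are the 4 highest and 4 lowest called in each comparison (mean of the higher group 10 CPM or more), and hosts in the lists of 3' end, termination and antisense RNA genes. Figures were drawn with matplotlib 3.10.9.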

Additional observations from a re-analysis of the deposited data

How the results depend on the processing

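The 2 IPs allow no test, and each is given alone. Of antisense peaks, 30 in IP 1 and 40 in IP 2 reached the median height of all peaks, and 16 and 15 of these were found in both IPs. With an overlap of at least 50% of both peaks, 37 of IP 1 were found again. Within 200 bases behind a gene end lay 4 in IP 1 and 8 in IP 2, and within 1000 bases 60 and 108, beside 5.91% and 27.3% of bases opposite genes. The class itself limits peaks close behind a gene end, as given in the results. Heights divided by the median of all peaks were 0.455 and 0.462. The cause of these shifts was not tested beyond the change of rule itself.

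Counted over hosts of either IP, 142 rose and 253 fell in ΔPcf11 (24.8% and 44.2%, against 32.2% and 33.2% of all features). In Pcf11-AARR 154 rose and 232 fell (26.9% and 40.6%, against 32.5% and 33.0%). In Pcf11-OE1 195 rose and 194 fell (34.2% and 34.0%, against 35.3% and 33.2%). In Pcf11-OE2 186 rose and 195 fell (32.6% and 34.2%, against 33.0% and 32.0%). These are of 570 to 572 hosts tested. With a change of at least 2-fold required too, the counts were 1 and 10, 2 and 14, 5 and 8, and 4 and 11 of 56, and their shares stand beside those of all features in the results. With a replicate block, 10 of 56 rose and 26 fell in ΔPcf11 (17.9% and 46.4%, against 31.1% and 32.1% of all features). In Pcf11-AARR 7 rose and 23 fell (12.5% and 41.1%, against 31.4% and 32.0%). In Pcf11-OE1 18 rose and 18 fell (32.1% and 32.1%, against 34.9% and 32.6%). In Pcf11-OE2 15 rose and 17 fell (26.8% and 30.4%, against 32.3% and 31.3%). The block lost 2, 1, 1 and 0 calls and gained 0, 0, 0 and 1. Same-numbered samples correlated at -0.069 to -0.042 for ΔPcf11, -0.01 to 0.073 for Pcf11-OE1 and -0.024 to -0.002 for Pcf11-OE2, so those numbers are not taken as pairs. Leaving out 1 library at a time gave 9 to 11 higher and 22 to 27 lower hosts in ΔPcf11. The shares were 16.1% to 19.6% and 39.3% to 48.2%, against 27.7% to 31.9% and 27.6% to 32.6% of all features. Pcf11-AARR gave 7 to 9 and 21 to 24 (12.5% to 16.1% and 37.5% to 42.9%, against 29% to 33.9% and 27.7% to 31.3%). Pcf11-OE1 gave 15 to 18 and 14 to 21 (26.8% to 32.1% and 25% to 37.5%, against 32.7% to 33.9% and 29.7% to 32.4%). Pcf11-OE2 gave 13 to 15 and 14 to 17 (23.2% to 26.8% and 25% to 30.4%, against 29.1% to 34.1% and 28% to 32.7%). For named hosts, 644 of 671 alternative values of 61 results kept their side of the threshold, 27 in 7 results no longer passed it, and 0 turned round. Those 7 were GRX5, HPF1, PRY3 and snR33 in ΔPcf11 and ACS1, YCL042W and snR7-L in Pcf11-OE1.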
